A study of Homo sapiens with 12 samples.

Results

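The genes described here are the 5 that encode the NF-κB/Rel transcription factor subunits, NFKB1, NFKB2, REL, RELA and RELB, in MDA-MB-231 cells treated with tumour necrosis factor α (TNFα), with the plant flavonoid apigenin, or with both. They were picked by gene symbol from the platform's probe annotation. Each symbol was carried by 1 probe set, so 5 of the 53617 probe sets on the array, and 5 of the 20572 genes that passed the filter on low values, represent the family. All 5 members passed that filter, and no probe set annotated to several genes named a member.

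MDA-MB-231 is an established human breast cancer line, derived from a pleural effusion, that lacks oestrogen and progesterone receptors. Total RNA of 12 samples was labelled and hybridised to Affymetrix whole-transcript arrays, 1 array a sample and 3 samples a group. The groups were cells given 40 ng/ml TNFα together with 40 µM apigenin, cells given 40 ng/ml TNFα, cells given 40 µM apigenin, and untreated control cells. Treatments lasted 24 h and were made up in Hanks' buffered saline; the labels do not say whether control cells received a solvent. All groups are the same line in the same serum-containing medium, with no genetic alteration named. The labels do not say whether the 3 samples of a group came from separate cultures, so each p-value reflects how much these samples varied, which could be technical variation alone.

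NF-κB proteins act as dimers built from a shared Rel homology domain that binds DNA and contacts the IκB inhibitors. RELA, REL and RELB carry a transactivation domain, while NFKB1 and NFKB2 encode the precursors p105 and p100, which are processed to the DNA-binding subunits p50 and p52 and, unprocessed, also hold partner subunits in the cytoplasm. TNFα activates the pathway mainly by phosphorylation and loss of IκB proteins, which frees dimers already present, and several subunit and inhibitor genes are themselves textbook targets of NF-κB. The arrays measure transcript levels, not protein, processing or nuclear entry.

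Values are the deposited log2 signals, in which each probe set has its own scale, so a member is compared between groups and never by level with another member. The 12 array medians lay between 2.09 and 2.16 on this scale and every value of the 5 members was above them. A gene was called higher or lower at a Benjamini-Hochberg adjusted p of at most 0.05 over all 20572 genes, from a limma fit over all 12 arrays. Folds of transcripts near the bottom of the array's range are understated. The number of arrays limits precision, and with 3 against 3 no exact permutation test of a single value can go below 0.1. In a bulk extract brought to equal RNA concentration, fewer cells carrying a transcript and less transcript in each cell cannot be told apart.

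The label of the line was checked against markers, which is a check of these arrays and not a result on the family. Array means over 10 genes known to be high in this line lay between 7.29 and 7.60, with AXL and VIM high throughout, although SPARC, also on that list, was low at 2.38 to 2.73. ESR1, PGR and CDH1 were low, at 1.84 to 2.44, 1.37 to 1.84 and 1.81 to 2.10, whereas EPCAM at 4.58 to 5.24, KRT19 at 4.38 to 5.97 and GATA3 at 3.65 to 4.67 were not. After TNFα plus apigenin KRT19 (-0.86), CD44 (-0.63) and FN1 (-0.51) were lower than after TNFα. With apigenin against control KRT19 (-0.95), CAV1 (-0.60) and FN1 (-0.37) were lower and SNAI2 (0.54) higher, and with TNFα plus apigenin against control KRT19 (-1.22), CAV1 (-0.58) and FN1 (-0.55) were lower. The part of these markers in the results was not tested. Leukocyte markers had array means of 1.87 to 2.08 over the 5 measured of 8, and fibroblast and endothelial markers 2.15 to 2.56 over the 7 measured of 9. KDR, an endothelial receptor gene on that list, stood apart at 2.87 to 5.52 and was lower after TNFα plus apigenin than after TNFα by a log2 difference of -1.63. Arrays with and without apigenin fell on opposite sides of the first principal component, which held 38.3% of the variance. On the second, 18.8%, the array numbered 3 was the lowest of its group in all 4 groups.

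Promoter windows of the subunit genes are shown because several of these genes are textbook targets of the factors they encode. The windows are RefSeq's, on GRCh38.p14, and run from 250 bases before to 50 bases after an annotated start. Capitals mark matches, on either strand, to the 10-base κB consensus decamer. The windows with a match, for the precursor genes NFKB1 and NFKB2 and for REL, are these.
NFKB1 window 1, chr4:102501109-102501408, plus strand: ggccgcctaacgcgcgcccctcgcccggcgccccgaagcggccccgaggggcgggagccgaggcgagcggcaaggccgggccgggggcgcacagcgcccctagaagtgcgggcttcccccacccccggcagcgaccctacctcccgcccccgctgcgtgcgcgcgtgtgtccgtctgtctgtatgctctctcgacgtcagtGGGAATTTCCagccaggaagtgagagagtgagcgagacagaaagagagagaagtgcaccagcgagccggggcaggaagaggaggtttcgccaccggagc
NFKB2 window 2, chr10:102394328-102394627, plus strand: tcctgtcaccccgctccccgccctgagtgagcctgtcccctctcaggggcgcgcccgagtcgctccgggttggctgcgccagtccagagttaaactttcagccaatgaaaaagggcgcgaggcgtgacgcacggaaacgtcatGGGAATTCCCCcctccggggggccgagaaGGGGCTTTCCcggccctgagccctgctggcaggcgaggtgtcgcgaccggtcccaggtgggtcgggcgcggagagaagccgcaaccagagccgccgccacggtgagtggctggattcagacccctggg
NFKB2 window 3, chr10:102395455-102395754, plus strand: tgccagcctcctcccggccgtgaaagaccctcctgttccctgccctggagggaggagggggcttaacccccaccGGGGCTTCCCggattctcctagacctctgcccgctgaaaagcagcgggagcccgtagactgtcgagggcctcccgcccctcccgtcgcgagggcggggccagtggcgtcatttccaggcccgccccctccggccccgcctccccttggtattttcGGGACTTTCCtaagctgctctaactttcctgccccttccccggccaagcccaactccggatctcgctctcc
REL window 1, chr2:60881324-60881623, plus strand: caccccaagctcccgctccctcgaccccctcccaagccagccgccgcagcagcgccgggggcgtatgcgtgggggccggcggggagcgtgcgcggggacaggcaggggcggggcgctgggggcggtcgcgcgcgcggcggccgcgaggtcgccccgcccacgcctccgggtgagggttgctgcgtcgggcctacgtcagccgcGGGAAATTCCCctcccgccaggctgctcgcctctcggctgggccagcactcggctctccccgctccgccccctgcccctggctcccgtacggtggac
The RELA windows, shown so that the member not called with TNFα alone is represented too, hold no match.
RELA window 1, chr11:65663808-65664107, minus strand: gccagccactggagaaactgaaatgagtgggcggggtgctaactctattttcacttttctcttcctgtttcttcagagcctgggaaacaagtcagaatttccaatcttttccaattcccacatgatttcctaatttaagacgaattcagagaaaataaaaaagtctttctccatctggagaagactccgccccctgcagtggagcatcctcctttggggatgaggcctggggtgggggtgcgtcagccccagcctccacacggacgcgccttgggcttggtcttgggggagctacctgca
RELA window 2, chr11:65662867-65663166, minus strand: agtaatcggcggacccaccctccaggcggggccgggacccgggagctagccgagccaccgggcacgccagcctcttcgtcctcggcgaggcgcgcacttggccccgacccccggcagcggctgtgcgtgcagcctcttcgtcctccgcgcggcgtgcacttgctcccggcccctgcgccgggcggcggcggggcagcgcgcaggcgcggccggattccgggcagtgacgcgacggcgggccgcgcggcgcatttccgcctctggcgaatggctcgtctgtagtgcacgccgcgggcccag

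In the NFKB1 window the single match, GGGAATTTCC, begins 49 bases before the start. NFKB2 window 2 holds 3 matches that begin 107, 106 and 78 bases before the start, the first pair overlapping, and window 3 holds 2, beginning 176 and 21 bases before it. The REL window holds 2 overlapping matches that begin 47 and 46 bases before the start. A stricter form of the decamer, in which the leading G run is followed by A, any base, a T run and the closing C pair, was found once each in the NFKB1 window, in NFKB2 window 3 and, on the opposite strand, in the REL window. The other NFKB1 window and the other NFKB2 window, not shown, held no match. The set of windows used here held none for RELB, so the RELB promoter was not searched.

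The consensus decamer was present in 11.3% of all 35116 windows of this length and in at least 1 window of 13.3% of 27305 genes. The strict form was present in 0.558% of windows and 0.678% of genes. The members' windows with a match held 67.7% to 79% G and C, and those without one 51.3% to 77%. The median over all windows was 58.7%. NFKB2 had 3 windows to search, NFKB1 and RELA 2 each and REL 1. The shares over all windows and genes were not adjusted for either. A GC box, GGGCGG on either strand, was present in 45% of windows, and in all windows shown here. A match describes letters in a window, not a bound site, and a window without one says only that these letters are absent from it. The REL window overlaps that of REL-DT, a divergent non-coding gene, whose probe set was called in no comparison, with limma adjusted p-values of 0.884 to 0.999.

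After TNFα alone, 4 of the 5 subunit genes were higher than in control cells: NFKB2 by 3.21-fold, NFKB1 by 2.37-fold, RELB by 1.97-fold and REL by 1.85-fold. RELA, the transactivating partner in the classical p50 heterodimer, was 1.27-fold above control and was not called. Across all genes 205 of 20572, 0.997%, were called, 160 higher and 45 lower. The arrays of the 2 groups did not overlap for 4 of 5 members, beside 13.6% of all genes. The median log2 difference of the 5 members was 0.98, beside 0.02 for all genes. Counted from the highest log2 difference, NFKB2 ranked 20, NFKB1 41, RELB 75, REL 98 and RELA 1730 of 20572 genes.

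NFKB1, which encodes p105 and p50, read 6.69, 6.70 and 6.91 on the TNFα arrays, against 5.66, 5.31 and 5.58 on the control arrays. Every TNFα array stood well above every control array. The log2 difference was 1.25 (SE 0.13, 95% interval 0.97 to 1.52), with a limma adjusted p of 0.000179.

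NFKB2, which encodes p100 and p52 of the noncanonical pathway, read 6.07, 5.52 and 6.05 on the TNFα arrays, against 3.72, 4.17 and 4.70 on the control arrays. The groups did not overlap, but the spread within groups was wide, with an SD of 0.31 for TNFα and 0.49 for control. The log2 difference was 1.68 (SE 0.28, 95% interval 1.09 to 2.28), with a limma adjusted p of 0.00811. Without the TNFα array numbered 1 the adjusted p was 0.0544, the highest over 14 alternative settings, whose lowest was 0.000366.

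RELB, the subunit that pairs with p52 and is held by p100, read 4.76, 4.30 and 4.54 on the TNFα arrays, against 3.51, 3.60 and 3.55 on the control arrays. The control arrays were tightly grouped and every TNFα array stood above them. The log2 difference was 0.98 (SE 0.14, 95% interval 0.68 to 1.28), with a limma adjusted p of 0.00275. Over 14 alternative settings the adjusted p ran from 0.00264 to 0.0946, the highest value coming without the 4 arrays numbered 3, the setting that lost the call.

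REL, the proto-oncogene c-Rel best known from lymphocytes, read 4.84, 4.97 and 5.38 on the TNFα arrays, against 4.25, 3.87 and 4.40 on the control arrays. Again no TNFα array reached down to a control array. The log2 difference was 0.89 (SE 0.16, 95% interval 0.54 to 1.24), with a limma adjusted p of 0.0156. This call was lost without the control array numbered 1 (adjusted p 0.0530), the control array numbered 2 (0.0702) or the TNFα array numbered 3 (0.0752), and when only these 2 groups were fitted (0.135). It was also lost without the 4 arrays numbered 3 (0.0901), and the lowest value over 14 settings was 0.0101.

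RELA, which encodes p65, read 6.96, 6.59 and 6.85 on the TNFα arrays, against 6.37, 6.35 and 6.65 on the control arrays. The groups overlapped, since the TNFα array numbered 2 lay below the control array numbered 3. The log2 difference was 0.34 (SE 0.14, 95% interval 0.04 to 0.65), with a limma adjusted p of 0.375.

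**Figure D1:**
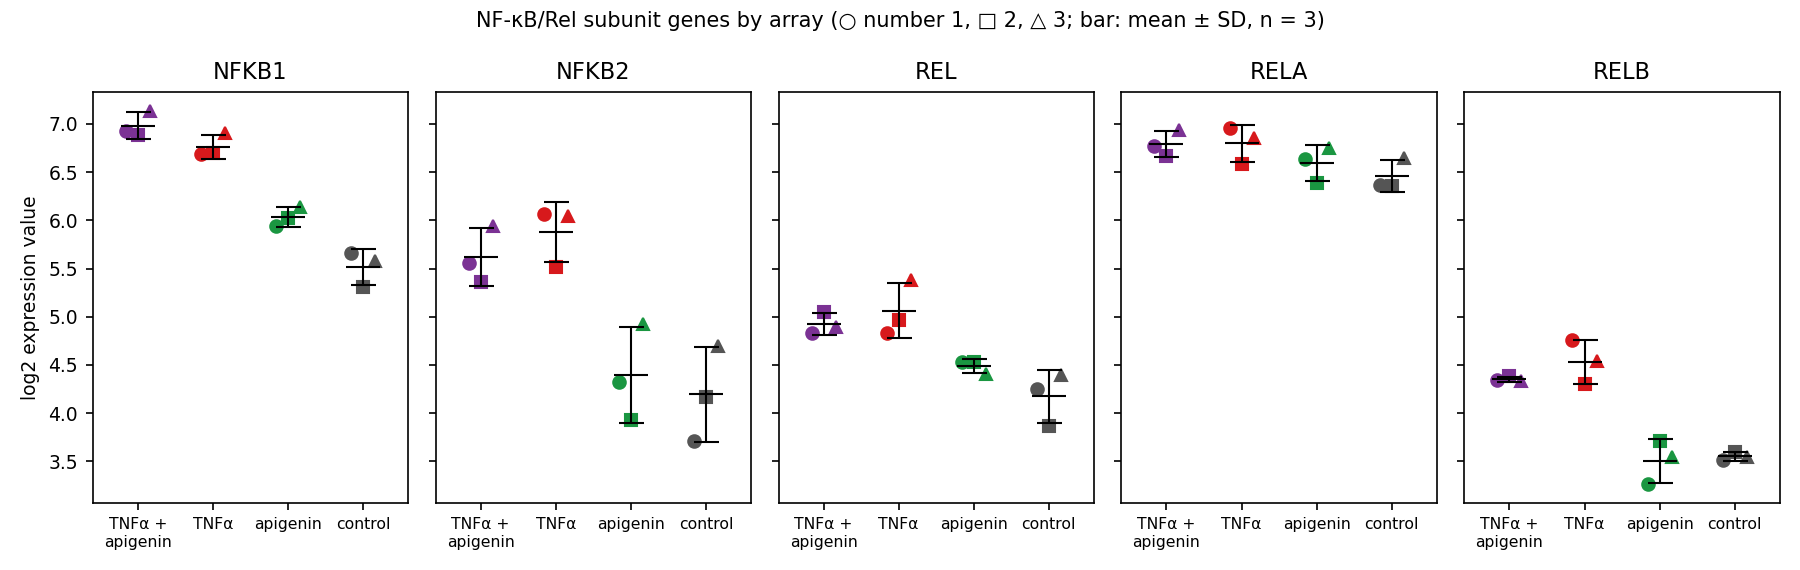
The log2 signal of NFKB1, NFKB2, REL, RELA and RELB is plotted for each of the 12 arrays, by treatment group, with the group mean and SD (n = 3). For NFKB1, NFKB2, REL and RELB every TNFα array stands above every control array, while the RELA groups overlap.

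To set the responses of the members against each other, the within-array difference between 2 members was compared between the groups, for all 10 pairs. In TNFα against control these differences did not overlap between groups for 6 of 10 pairs. The response of NFKB2 exceeded that of RELA by 1.34 (SE 0.22) on the log2 scale, that of NFKB1 exceeded it by 0.90 (SE 0.17), and RELA minus RELB was -0.64 (SE 0.11). NFKB2 also exceeded RELB by 0.70 (SE 0.29) and REL by 0.79 (SE 0.35), and NFKB1 exceeded REL by 0.36 (SE 0.13). In a two-sided exact permutation test each of these 6 pairs had p = 0.1, the smallest this design allows. After adjustment over the 10 pairs it was 0.167, and no pair could have passed the threshold. The pairs reuse the same genes, and the share of non-overlapping pairs among other genes was not computed. The count of 6 of 10 is therefore a description only. For NFKB1 against NFKB2 the difference was -0.44 (SE 0.36) and the arrays overlapped.

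Apigenin alone left 4 of the 5 subunit genes without a call and NFKB1 higher by 1.43-fold. The background was large, with 2342 of 20572 genes or 11.4% called, 936 higher and 1406 lower, so that a count of 1 in 5 members is not far from it. The median log2 difference of the members was 0.20, beside -0.02 for all genes.

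NFKB1 read 5.94, 6.02 and 6.14 on the apigenin arrays, against 5.66, 5.31 and 5.58 on the control arrays. The groups did not overlap, and the log2 difference was 0.51 (SE 0.13, 95% interval 0.24 to 0.79), with a limma adjusted p of 0.0191. The call was lost without the control array numbered 2 (adjusted p 0.0751), the apigenin array numbered 2 (0.0509) or the apigenin array numbered 3 (0.0719), and when only these 2 groups were fitted (0.0541). Over 14 settings the adjusted p ran from 0.00585 to 0.0917, the highest without the 4 arrays numbered 3.

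REL read 4.53, 4.53 and 4.41 on the apigenin arrays, against 4.25, 3.87 and 4.40 on the control arrays. The arrays did not overlap, although the closest pair differed by very little. The log2 difference of 0.32 (95% interval -0.03 to 0.66) had a limma adjusted p of 0.274.

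The other 3 members overlapped between apigenin and control, so that 2 of 5 members did not, beside 25.5% of all genes. NFKB2 read 4.33, 3.93 and 4.93 with apigenin, a log2 difference from control of 0.20 whose 95% interval ran from -0.39 to 0.79. RELA read 6.64, 6.39 and 6.76 with apigenin, a difference of 0.14 with an interval of -0.17 to 0.45. RELB read 3.26, 3.71 and 3.54 with apigenin, a difference of -0.05 with an interval of -0.35 to 0.25.

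Adding apigenin to TNFα gave no called difference in any of the 5 subunit genes relative to TNFα alone. This comparison called 2085 of 20572 genes, 10.1%, of which 867 were higher and 1218 lower, and 4476 genes had an unadjusted p under 0.05 in limma. None of the members reached that, the smallest unadjusted limma p being 0.113 for NFKB1. The arrays of the 2 groups overlapped for all 5 members, and did not overlap for 26.2% of all genes. With 10.1% of all genes called, the absence of a call among 5 members is not far from the background.

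NFKB1 read 6.93, 6.88 and 7.14 with TNFα plus apigenin, against 6.69, 6.70 and 6.91 with TNFα, a log2 difference of 0.22 (95% interval -0.06 to 0.50). NFKB2 read 5.56, 5.36 and 5.94 with both agents, against 6.07, 5.52 and 6.05 with TNFα, a difference of -0.26 (interval -0.85 to 0.34). For both genes the arrays of the 2 groups overlapped, with the NFKB1 mean above and the NFKB2 mean below that of TNFα alone.

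REL read 4.83, 5.05 and 4.89 with both agents, against 4.84, 4.97 and 5.38 with TNFα, a difference of -0.14 (interval -0.49 to 0.21). RELA read 6.77, 6.67 and 6.93 with both, against 6.96, 6.59 and 6.85 with TNFα, a difference of -0.01 (interval -0.32 to 0.30). RELB read 4.34, 4.38 and 4.33 with both, against 4.76, 4.30 and 4.54 with TNFα, a difference of -0.18 (interval -0.48 to 0.12). The intervals bound the differences and do not show that the levels were equal. The within-array differences between members did not overlap for 3 of 10 pairs, all of them pairs with NFKB1. The response of NFKB1 minus that of the other member was 0.48 (SE 0.19) for NFKB2, 0.40 (SE 0.18) for RELB and 0.23 (SE 0.12) for RELA. Each had a two-sided exact permutation p of 0.1, the smallest this design allows, and 0.333 after adjustment. No pair could have passed the threshold.

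In cells that all received apigenin, adding TNFα was followed by higher NFKB1, by 1.93-fold, and higher RELB, by 1.80-fold. Only 43 of 20572 genes, 0.209%, were called here, all higher. NFKB2 had the larger fold, 2.34, and ranked 14 by log2 difference among all genes, but was not called. The arrays of the 2 groups did not overlap for 4 of 5 members, beside 14.1% of all genes. The median log2 difference of the members was 0.85, beside 0.03 for all genes.

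NFKB1 at 6.93, 6.88 and 7.14 with both agents stood clear of 5.94, 6.02 and 6.14 with apigenin, with a log2 difference of 0.95 (SE 0.13, 95% interval 0.67 to 1.23) and a limma adjusted p of 0.00603. Without the apigenin array numbered 1 the adjusted p was 0.0529 and without the 4 arrays numbered 3 it was 0.133, while the lowest over 14 settings was 0.00182. RELB at 4.34, 4.38 and 4.33 with both agents stood clear of 3.26, 3.71 and 3.54 with apigenin, with a log2 difference of 0.85 (SE 0.14, 95% interval 0.55 to 1.15) and a limma adjusted p of 0.0255. The RELB call was lost without any of the 3 arrays of TNFα plus apigenin, or without the apigenin array numbered 1 or 3, with adjusted p-values of 0.0638 to 0.150, and over 14 settings it ran from 0.0220 to 0.325, the highest without the 4 arrays numbered 3.

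NFKB2 at 5.56, 5.36 and 5.94 with both agents also lay wholly above 4.33, 3.93 and 4.93 with apigenin. Its log2 difference of 1.22 (SE 0.28, 95% interval 0.63 to 1.82) had a limma adjusted p of 0.147. With a block by replicate number the limma adjusted p was 0.0101, and NFKB2 was called. REL at 4.83, 5.05 and 4.89 lay above 4.53, 4.53 and 4.41, with a difference of 0.43 (interval 0.09 to 0.78) and a limma adjusted p of 0.567. RELA overlapped between these groups, with a difference of 0.20 (interval -0.11 to 0.50).

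Relative to untreated cells, the combination gave 4 of the 5 members as higher: NFKB1 by 2.76-fold, NFKB2 by 2.69-fold, RELB by 1.74-fold and REL by 1.68-fold. In this comparison 2576 of 20572 genes, 12.5%, were called, 1471 higher and 1105 lower, and the arrays did not overlap for 5 of 5 members, beside 27.6% of all genes. The limma adjusted p was 1.25e-05 for NFKB1, 0.00370 for NFKB2, 0.00168 for RELB and 0.00730 for REL. RELA at 6.77, 6.67 and 6.93 with both agents lay just above 6.37, 6.35 and 6.65 in control cells. Its log2 difference of 0.34 (95% interval 0.03 to 0.64) had a limma adjusted p of 0.162. With a block by replicate number the limma adjusted p was 0.0443, and RELA was called.

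TNFα against apigenin, the comparison of the 2 agents given alone, also gave NFKB1, NFKB2, REL and RELB as higher with TNFα. It called 2793 of 20572 genes, 13.6%, of which 1975 were higher and 818 lower, and the arrays did not overlap for 4 of 5 members, beside 27.4% of all genes. The log2 differences were 1.48 for NFKB2, 1.03 for RELB, 0.73 for NFKB1 and 0.57 for REL, with limma adjusted p-values of 0.00266, 0.000282, 0.00183 and 0.0306. The REL call was lost without the TNFα array numbered 3 (adjusted p 0.138) or without any of the apigenin arrays (0.0659 to 0.0902), and over 14 settings the adjusted p ran from 0.0196 to 0.233. RELA differed by 0.20 (95% interval -0.10 to 0.51).

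**Figure D2:**
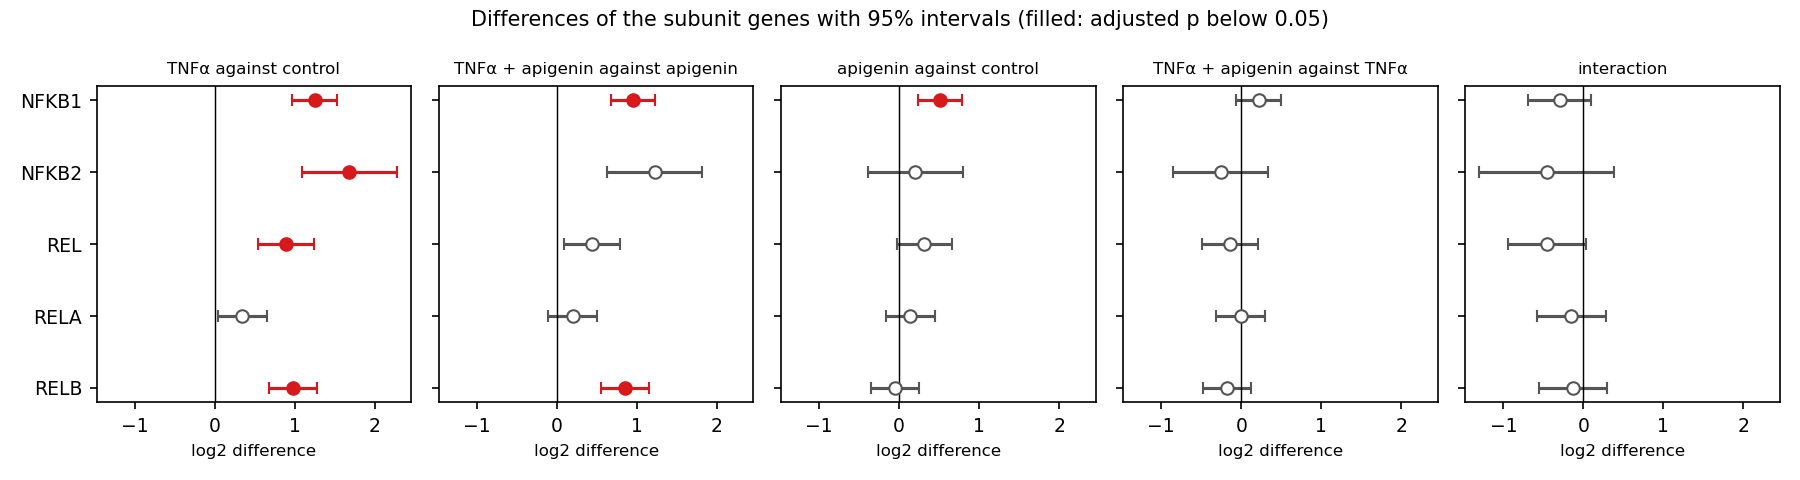
Log2 differences of the 5 subunit genes are plotted with their 95% intervals. The panels show TNFα against control, TNFα plus apigenin against apigenin, apigenin against control, TNFα plus apigenin against TNFα, and the interaction. The intervals of all 5 genes lie above 0 for TNFα against control, that of RELA (0.04 to 0.65) without a call. Those of all 5 genes include 0 for TNFα plus apigenin against TNFα.

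Whether the response to TNFα differed in the presence of apigenin was tested by the interaction term, the TNFα response with apigenin minus that without it. The term was called for 11 of 20572 genes, 0.0535%, 2 higher and 9 lower, and for none of the 5 members, while 870 genes had an unadjusted p under 0.05. The term was below 0 for 5 of 5 members, and for 48.4% of all genes.

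REL had an interaction of -0.46 (SE 0.23, 95% interval -0.95 to 0.04) and the smallest unadjusted limma p among the members, 0.0670. NFKB2 had the same size of term with a wider error, -0.46 (SE 0.39, interval -1.30 to 0.38), and NFKB1 had -0.30 (SE 0.18, interval -0.69 to 0.10). The terms of RELA, -0.15 (SE 0.20), and RELB, -0.13 (SE 0.20), were smaller than their errors. All 5 adjusted p-values were 0.999, and all 5 intervals include 0.

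**Figure D3:**
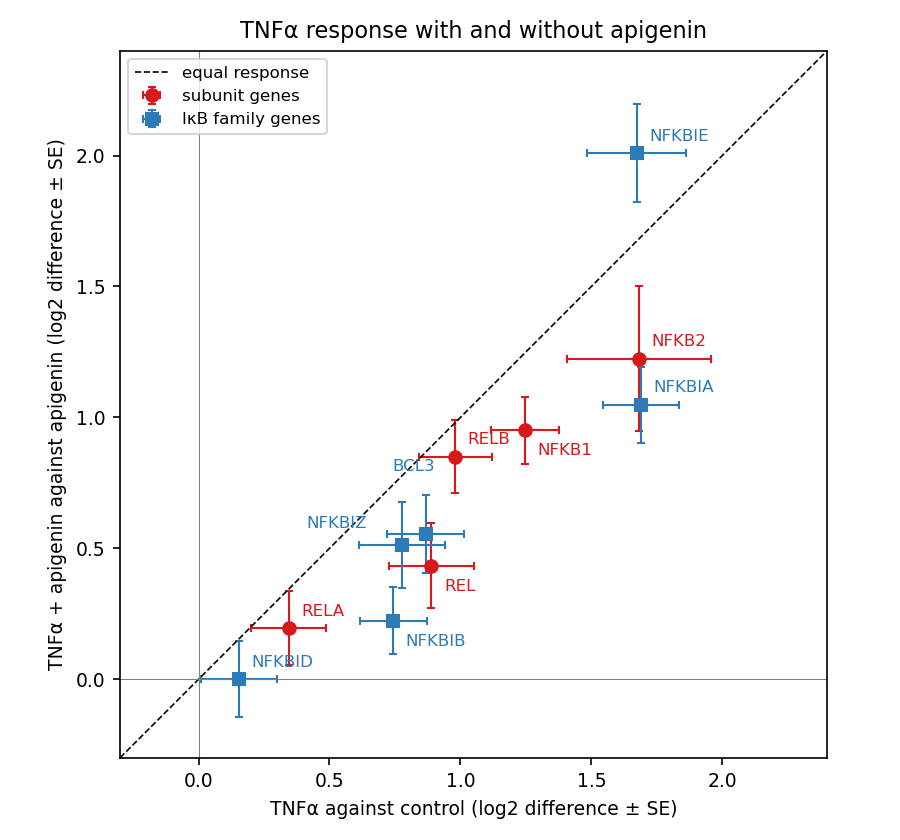
The log2 difference of TNFα plus apigenin against apigenin is plotted over that of TNFα against control for the 5 subunit genes and the 6 IκB family genes, with SE in both directions and a line of equal response. All 5 subunit genes lie below the line, within errors that left the interaction uncalled. NFKBIA, NFKBIB, NFKBIZ, NFKBID and BCL3 also lie below it, and NFKBIE lies above it.

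The sum of squares of each member over the 12 arrays was divided among TNFα, apigenin, their interaction and the spread between arrays of a group. TNFα accounted for 90.7% in RELB, 85.3% in NFKB1, 80.6% in NFKB2, 71.4% in REL and 45.5% in RELA. Apigenin accounted for 9.49% in NFKB1 and at most 2.72% in the other members, and the interaction for 8.44% in REL and at most 3.44% elsewhere. In RELA 48.3% lay between arrays of a group, against 3.69% in NFKB1.

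Part of the spread within groups followed the replicate number. The array numbered 3 was above its group mean in all 4 groups for NFKB1, NFKB2 and RELA, by 0.12, 0.38 and 0.14 on average, and in 2 of 4 groups for REL and RELB. The part of this in the results was not tested.

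**Figure D4:**
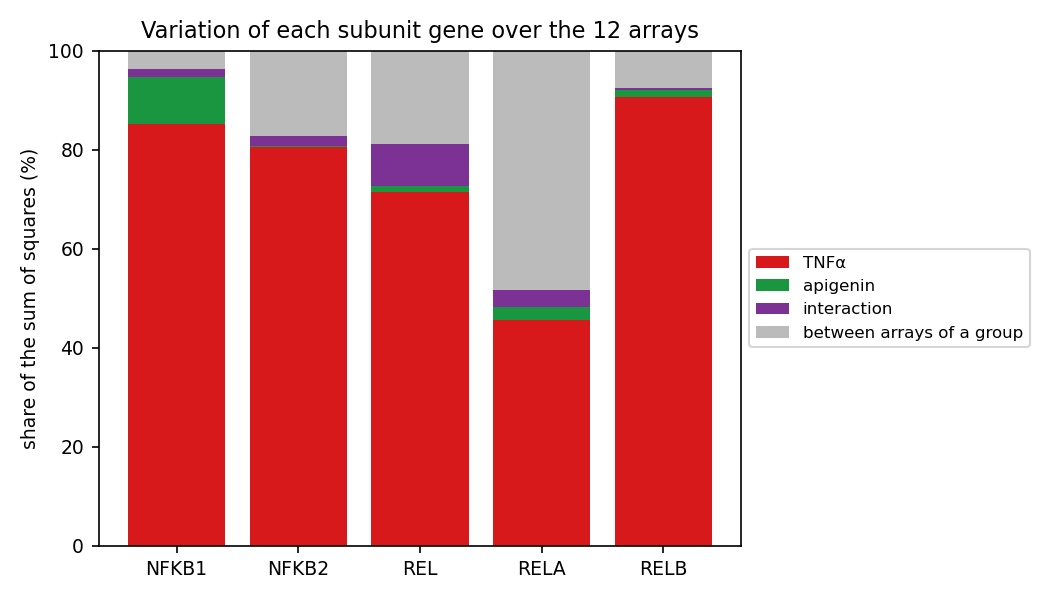
Stacked bars give the share of each subunit gene's sum of squares over the 12 arrays, in percent, that belongs to TNFα, apigenin, their interaction and the differences between arrays of a group. The TNFα share is 90.7% in RELB and 45.5% in RELA, where 48.3% lies between arrays of a group.

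The order of the 4 groups differed between members. NFKB1 averaged 6.98 ± 0.14 with TNFα plus apigenin, 6.76 ± 0.12 with TNFα, 6.03 ± 0.10 with apigenin and 5.52 ± 0.18 in control cells (SD, n = 3 each), and only the first neighbours in this order were not called different. For NFKB2 and REL the order was TNFα, TNFα plus apigenin, apigenin and control. No neighbours in it were called different in the fit without a replicate block. NFKB2 averaged 5.88 ± 0.31 with TNFα, 5.62 ± 0.30 with both agents, 4.40 ± 0.50 with apigenin and 4.19 ± 0.49 in control cells. REL averaged 5.06 ± 0.29 with TNFα, 4.92 ± 0.11 with both agents, 4.49 ± 0.07 with apigenin and 4.17 ± 0.27 in control cells.

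RELA had the same order, at 6.80 ± 0.19 with TNFα, 6.79 ± 0.13 with both agents, 6.60 ± 0.19 with apigenin and 6.46 ± 0.17 in control cells, again with no neighbours called different. RELB averaged 4.53 ± 0.23 with TNFα, 4.35 ± 0.03 with both agents, 3.50 ± 0.22 with apigenin and 3.55 ± 0.04 in control cells, which stood marginally above apigenin. For RELB the pairs of TNFα with the combination and of apigenin with control were not called different, whereas the combination was called above both apigenin and control.

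For each called member, the named genes most like it were taken as those with the smallest root mean square difference over the 12 arrays after centring each gene on its own mean. This is a description over 12 arrays that share their treatments and replicate numbers. NFKB1 was closest to TRAF3 (0.19 log2 units), G0S2 (0.24) and TNFRSF10B (0.24), beside a root mean square of 0.59 about its own mean. NFKB2 was closest to TRAF3 (0.31), ARHGAP31 (0.31) and NFKBIA (0.32), beside 0.81 about its own mean.

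REL was closest to BMS1 (0.15), RAPH1 (0.16) and SEMA4B (0.17), beside 0.39, and RELB to GCH1 (0.16), HIVEP1 (0.19) and OTUD4 (0.19), beside 0.48. TRAF3, an adaptor that restrains the noncanonical pathway, was thus on the lists of both precursor genes. By the same measure the members nearest each other were REL and RELB (0.29), REL and RELA (0.30) and NFKB1 and REL (0.30), and the farthest were NFKB2 and RELA (0.64).

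The IκB family, the inhibitors and nuclear cofactors that bind the subunits, had all 6 listed genes measured. TNFα against control gave 5 of 6 as higher and none as lower, where 0.997% of all genes were called. The median log2 difference of the 6 was 0.82, beside 0.02 for all genes. NFKBIA, the classical inhibitor IκBα, read 7.98, 8.09 and 8.54 with TNFα, against 6.44, 6.46 and 6.65 in control cells, a log2 difference of 1.69 (SE 0.15). NFKBIE differed by 1.67 (SE 0.19), BCL3, which works with p50 and p52 in the nucleus, by 0.87 (SE 0.15), NFKBIZ by 0.78 (SE 0.16) and NFKBIB by 0.74 (SE 0.13). NFKBID differed by 0.15 (SE 0.14) and was not called.

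The IκB genes were not uniform once apigenin was present. Apigenin against control, where 11.4% of all genes were called, gave NFKBIB (0.66) and NFKBIZ (0.65) as higher. TNFα plus apigenin against TNFα, with 10.1% of all genes called, gave BCL3 as lower. TNFα plus apigenin against apigenin, with 0.209% called, gave NFKBIE (2.01) and NFKBIA (1.05) as higher. BCL3 read 3.82, 4.11 and 4.22 with both agents, against 4.72, 4.45 and 4.82 with TNFα, a log2 difference of -0.61 (SE 0.15, limma adjusted p 0.0180) without overlap. Against control the combination gave 4 of 6 as higher, where 12.5% of all genes were called, BCL3 (0.26) and NFKBID (0.18) being the uncalled ones. No interaction was called in this list, whose median term was -0.29, beside 0.01 for all genes.

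The 10 listed genes for IκB kinases, related or upstream kinases and their partner proteins were all measured. With TNFα against control 1 of them was called, where 0.997% of all genes were. This was IKBKE, an inducible IκB kinase relative, which averaged 6.57 with TNFα and 4.40 in control cells, a log2 difference of 2.17 (SE 0.27). IKBKE averaged 4.28 with both agents, a log2 difference from TNFα of -2.29 (SE 0.27, limma adjusted p 0.000202), and 3.16 with apigenin, a difference from control of -1.24. TAB1, a partner of the TAK1 kinase, was lower with apigenin than in control cells by a log2 difference of -0.54. IKBKE and TAB1 were the 2 of 10 called there, where 11.4% of all genes were. TNFα against apigenin gave IKBKE (3.42), TAB3 (0.86), another TAK1 partner, and TAB1 (0.61) as higher. These were 3 of 10, where 13.6% of all genes were called. Between TNFα plus apigenin and TNFα, IKBKE was the 1 called of 10, where 10.1% of all genes were. Apart from TNFα against control, these counts are not far from the background. CHUK, IKBKB, IKBKG and MAP3K14 were called in none of the 7 comparisons.

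Of the TNF receptor complex list, 14 of 20 genes were measured. With TNFα against control, where 0.997% of all genes were called, 3 were higher: TNFAIP3 (3.12), TNIP1 (1.87) and CFLAR (0.59). TNFα plus apigenin against TNFα gave TNFAIP3 (-0.78) and TNIP1 (-0.66), both restrainers of the pathway, as lower. With 10.1% of all genes called, 2 of 14 is not far from the background. Of the noncanonical inputs, 12 of 15 were measured, and TRAF3 (1.19) and LTB (0.72), a ligand of the noncanonical pathway, were higher with TNFα than in control cells. None of these 12 was called between TNFα plus apigenin and TNFα, where 10.1% of all genes were, so this count is not far from the background.

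Of the genes for precursor processing, 8 of 13 were measured. With TNFα against control only TNIP1, which binds p105, was called, and with TNFα plus apigenin against TNFα SKP1 (0.89), FBXW7 (0.71) and MAP3K8 (0.47) were higher and TNIP1 lower. MAP3K8 is the kinase held by p105, and FBXW7 is a ubiquitin ligase component that recognises p100. Of the 25 measured cofactors and modifying enzymes, of 30 listed, 0 were called with TNFα against control, where 0.997% of all genes were, and 5 with TNFα plus apigenin against TNFα, where 10.1% of all genes were. Of those 5, 3 were lower with both agents, PIAS3 (-1.19) and RPS6KA5 (-0.90), a kinase of RELA, among them, and PPM1D (0.64) and SIRT6 (0.56) were higher. Of the 7 other genes with a Rel-type DNA-binding domain, all measured, NFATC2 was the called one in both comparisons, with log2 differences of 1.25 for TNFα against control and -1.56 for TNFα plus apigenin against TNFα.

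Known NF-κB target genes were examined beside the subunit genes. This list was chosen with earlier results of these data known, so its counts are a description and not a test. With TNFα against control 20 of 42 measured targets, of 45 listed, were higher and none lower, where 0.997% of all genes were called. The median log2 difference of the 42 was 0.61, beside 0.02 for all genes. CXCL8, a neutrophil chemokine, led with 4.36, followed by IL1A, a cytokine, with 4.33. With TNFα plus apigenin against TNFα, which called 10.1% of all genes, 14 targets were lower and 3 higher. The median of the 42 was -0.18, beside -0.01 for all genes. IL1A differed by -3.73, C3, of the complement system, by -2.16 and PTX3 by -1.70, while GADD45B, a stress-response gene, differed by 2.08. The interaction was called for 0.0535% of all genes and for 4 of the 42, all lower: IL1A (-3.57), C3 (-2.29), CXCL8 (-2.09) and MMP9 (-1.39).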

How the data were processed

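Total RNA of MDA-MB-231 cells, extracted with TRIzol and chloroform and labelled with the GeneChip WT PLUS kit per the labels' protocols, was measured on 12 arrays. The authors' deposited values are log2 signals, made with Affymetrix Expression Console according to the submitters' processing notes; the log base and scale follow from the values, which lay between 0.54 and 12.50, and neither its summary algorithm nor its version is given in the sources used here. Scanner intensities were not used here, so no background correction was repeated.

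Of 53617 probe sets, 23871 named 1 gene symbol, 1842 several and 27904 none. Symbols were updated through the gene ID. A probe set with 1 symbol was kept if it reached its array's 25th percentile on at least 3 arrays, which left 21895, and each of 20572 genes was represented by its probe set of highest mean. Differences were fitted with limma 3.58.1 in R 4.3.3 over all 12 arrays (4 group means, empirical Bayes) and adjusted by Benjamini-Hochberg over all genes, with a threshold of 0.05. The fit was tested on simulated data. Groups came from the sample labels. The labels name no batch, so no block by replicate number was used in this fit, and such a block was run as an alternative.

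The members and gene lists were chosen with earlier results of these data known. Text names all members, genes of the IκB and IκB kinase lists, at most 4 called genes per other list and comparison, and the 3 nearest genes by likeness; marker genes are named as a check. Promoter windows are from RefSeq (GRCh38.p14). Alternatives covered normalization, the filter, the choice of probe set, moderation of the variance, the samples fitted, a replicate block and omission of arrays.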

Additional observations from a re-analysis of the deposited data

How the results depend on the processing

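Of 515 alternative values for the 5 members, 478 kept their direction and side of the threshold, 26 lost the call, 2 gained it and 9 changed sign, all 9 of them differences near 0 that were not called. Each member has 1 probe set, so either filter and the mean of probe sets return the same difference. The replicate block, moderation of the variance and fitting only the groups compared leave it unchanged too. Direction could therefore change only with quantile normalisation or omitted arrays. With the replicate block, NFKB2 was called for TNFα plus apigenin against apigenin (adjusted p 0.0101) and RELA for TNFα plus apigenin against control (0.0443). The block changed no other member's call, but gave 632 called genes for TNFα against control, 3315 for TNFα plus apigenin against TNFα and 100 for TNFα plus apigenin against apigenin. Deviations from the group mean correlated by 0.018 to 0.464 between arrays of one number and -0.442 to 0.102 between arrays of different numbers. All 12 arrays correlated best with their own number, a hint from the data and not from the design.

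Fitting only the groups compared, which was not run for the interaction, left 73 genes for TNFα against control, 21 genes and 1 member for TNFα plus apigenin against apigenin, and 0 members for apigenin against control. Trend and robust moderation left 3 interaction genes. Omitting all 4 arrays numbered 3, chosen after seeing the data, left 85 genes and 2 members, NFKB1 and NFKB2, for TNFα against control, where RELB (adjusted p 0.0946) and REL (0.0901) were lost. It left 1505 genes and 0 members for apigenin against control, 1288 genes for TNFα plus apigenin against TNFα, 15 genes and 0 members for TNFα plus apigenin against apigenin, 2 interaction genes, and 1817 genes for TNFα against apigenin. Fewer samples enter these fits.

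Leaving out 1 array at a time gave 3 to 4 members and 98 to 314 genes for TNFα against control. It gave 0 to 1 members and 1534 to 2050 genes for apigenin against control, and 1191 to 2063 genes for TNFα plus apigenin against TNFα. It gave 0 to 2 members and 15 to 31 genes for TNFα plus apigenin against apigenin, 2 to 6 interaction genes, and 1800 to 2894 genes for TNFα against apigenin. The 4 members called for TNFα plus apigenin against control stayed called. The sign changes fell within ranges of -0.065 to 0.45 for NFKB2 and -0.15 to 0.072 for RELB in apigenin against control, and of -0.11 to 0.071 for RELA and -0.25 to 0.022 for REL in TNFα plus apigenin against TNFα, where REL was 0.037 without the arrays numbered 3. The cause of these changes was not tested. Quantile normalisation, either filter and the mean of probe sets changed no member's call.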
